A study of Mus musculus with 16 samples.

Results

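The genes described here carry glucose into the cell, split it by glycolysis, export its product lactate, and store or release glucose as glycogen. They were chosen from a list of 37 symbols of known function, and the members are the 36 that occur in the tables of both tissues, out of 16882 genes that both tables hold. Eno1, the enolase of most tissues, is the symbol left out, since the quadriceps table does not list it. The samples were quadriceps muscle and brown adipose tissue of male C57BL/6 mice aged 10 weeks and housed at room temperature. In each tissue 4 libraries came from wild-type mice and 4 from littermates homozygous for uORF-TAA, an allele of Ppargc1a, which makes 16 libraries in all. Ppargc1a encodes PGC-1alpha, a transcriptional coactivator known for driving mitochondrial genes in both tissues. A uORF is a short open reading frame upstream of the main coding sequence, and TAA is a stop codon. The allele is not tied by its label to a cell type or a promoter, and no label ties a quadriceps library to a brown fat library of the same mouse.

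Glucose enters muscle and fat cells through GLUT1 and, when insulin or contraction calls it to the surface, through GLUT4. Hexokinase traps it as glucose 6-phosphate, which either passes down glycolysis to pyruvate and lactate or is stored as glycogen. Several steps exist as isoforms from separate genes, and skeletal muscle is known for its own set, among them the M forms of phosphofructokinase, glycogen phosphorylase and phosphoglycerate mutase. Brown fat takes up much glucose when it makes heat, and uses it for fatty acid and glycerol synthesis as well as for fuel.

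Each tissue has 1 table of the authors' comparison between genotypes, with a mean normalized count per gene over the 8 libraries, and values per library were not analysed here. No spread between mice can therefore be attached to a level, and levels are given as descriptions. The level of a gene is given in CPM, its mean normalized count per M (mega) of the table's sum, which was 21.0 M in quadriceps and 12.8 M in brown fat. The tables were normalized separately, so a level set across tissues rests on that scaling. Estimated depth lay between 11.4 M and 31.8 M counts for the quadriceps libraries and between 11.0 M and 17.8 M for those of brown fat. The tissues matched their labels, with Ucp1, the uncoupling protein of brown fat, at 3709 CPM in brown fat and 0.318 in quadriceps. The fast fibre myosin Myh4 stood at 101823 CPM in quadriceps and still at 3330.0 in brown fat. Of 10 adipocyte markers all were detected in quadriceps too, where they summed to 505 CPM against 24500 in brown fat.

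The 36 genes together made up 4.08% of all counts in quadriceps and 1.46% in brown fat. Among the 35 with a mean normalized count of at least 50 in a tissue, 14 were at least 2-fold higher in quadriceps, where 11.9% of all genes with such a mean were, and 22 were higher by any amount, against 25.6%. At least 2-fold higher in brown fat were 10, where 51.2% of all genes were, and the remaining 11 lay within 2-fold. Their median ratio of quadriceps over brown fat was 1.36, against 0.485 over all 11197 such genes. The members thus leaned to muscle on a scale on which most genes leaned to brown fat. Under the 3 other scalings tried, every ratio of quadriceps over brown fat was larger by one common factor, between 1.47 and 1.88.

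**Figure D1:**
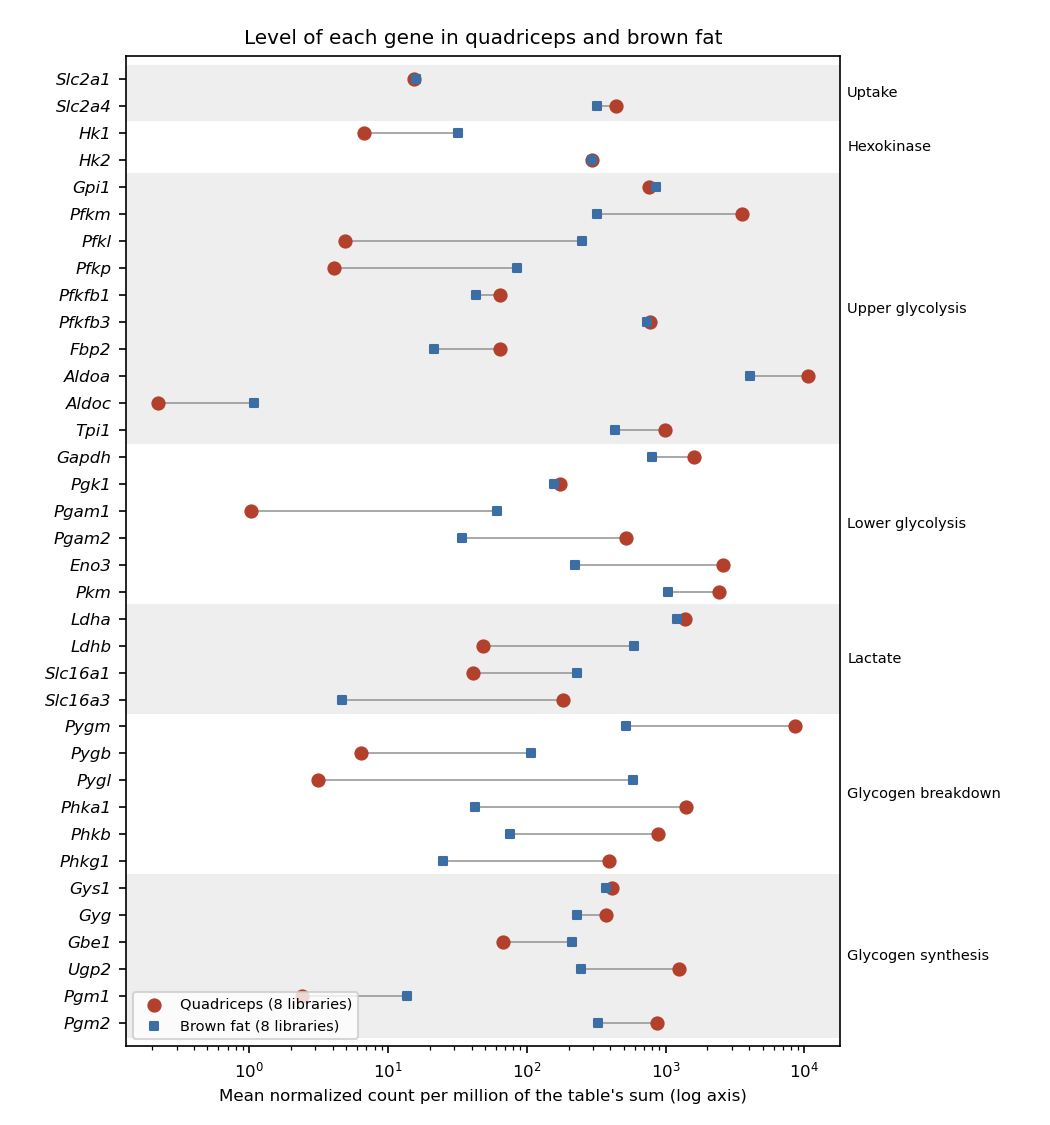
Level of each of the 36 genes in quadriceps (circles) and brown fat (squares), in CPM on a log axis, each over 8 libraries and grouped by role. The muscle forms Pfkm, Pgam2, Eno3 and Pygm lie far to the right in quadriceps, and Pygl, Pfkl and Pgam1 lie far to the right in brown fat.

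The transporters and hexokinases showed the same order of isoforms in both tissues. Slc2a4, the insulin-responsive transporter GLUT4, stood at 437 CPM in quadriceps and 320.2 in brown fat. Slc2a1, the basal transporter GLUT1, was at 15.4 and 15.9 CPM. Per kilobase of transcript, the mean normalized count of Slc2a4 was 36.7-fold that of Slc2a1 in quadriceps and 26.0-fold in brown fat. Hk2, the hexokinase of insulin-responsive tissues, was nearly level between tissues at 295 CPM in quadriceps and 297 in brown fat. Hk1, the more widely expressed hexokinase, was 4.77-fold higher in brown fat, at 32.1 against 6.73 CPM. Per kilobase, Hk2 led Hk1 by 34.04-fold in quadriceps and by 7.18-fold in brown fat. The directions between tissues of Slc2a1 and Hk2, both near 1 on this scale, turned under each of the 3 other scalings tried, as did that of Gpi1 below.

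In upper glycolysis the phosphofructokinases, which commit glucose to the pathway, differed most between the tissues. Pfkm, the muscle form, was 10.9-fold higher in quadriceps, at 3526 CPM against 323 in brown fat. Pfkl, the liver form, was 51.0-fold higher in brown fat, at 249 against 4.88 CPM. The platelet form Pfkp was 20.8-fold higher there. In quadriceps Pfkm therefore held 99.8% of the family's counts per kilobase, and in brown fat 56.2%, where it led Pfkl by only 1.68-fold.

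Aldoa, the main aldolase, had the highest deposited count of the members in both tissues, with 10547 CPM in quadriceps and 4051 in brown fat. Its relative Aldoc was scarce, with the authors' mean normalized counts of 4.67 in quadriceps and 13.9 in brown fat. Gpi1, which isomerizes glucose 6-phosphate, was at 765 and 858 CPM. Tpi1, which interconverts the triose phosphates, was 2.27-fold higher in quadriceps. Fbp2, the muscle bisphosphatase that runs the phosphofructokinase step backwards, was 3.01-fold higher in quadriceps. Pfkfb3, whose product fructose 2,6-bisphosphate activates phosphofructokinase, was at 769.7 CPM in quadriceps and 731 in brown fat. It led its relative Pfkfb1 per kilobase by 4.68-fold in quadriceps and by 6.66-fold in brown fat.

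In lower glycolysis the muscle forms of mutase and enolase stood out. Pgam2, the muscle phosphoglycerate mutase, was 15.2-fold higher in quadriceps, at 520.1 CPM against 34.1. Pgam1, the form of most other tissues, was 59.1-fold higher in brown fat, at 60.7 against 1.03 CPM. Per kilobase Pgam2 led by 1072-fold in quadriceps and by 1.19-fold in brown fat, where without the length correction Pgam1 led instead. Eno3, the muscle enolase, was 11.6-fold higher in quadriceps, at 2602 CPM against 224 in brown fat. Gapdh, which makes the pathway's NADH, was 2.00-fold higher in quadriceps, and Pkm, the pyruvate kinase of both tissues, 2.31-fold. Pgk1, which makes the first ATP of the pathway, was nearly level at 173 and 157 CPM. Pkm yields alternative M1 and M2 forms by splicing, which a value per gene does not separate.

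Lactate handling differed by isoform as well. Ldha, the lactate dehydrogenase subunit of fast muscle, was at 1392 CPM in quadriceps and 1215 in brown fat. Ldhb, the subunit typical of heart, was 12.3-fold higher in brown fat, at 594 against 48.2 CPM. Per kilobase Ldha led Ldhb by 20.7-fold in quadriceps and by 1.47-fold in brown fat. The lactate transporters changed places. Slc16a3, the exporter MCT4 of fast fibres, was 39.3-fold higher in quadriceps, at 183 CPM against 4.66. Slc16a1, the widely expressed MCT1, was 5.65-fold higher in brown fat, at 231 against 40.8 CPM. Per kilobase Slc16a3 led by 4.59-fold in quadriceps and Slc16a1 by 48.5-fold in brown fat.

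Glycogen phosphorylase, which releases glucose 1-phosphate from glycogen, showed the widest contrast between isoforms. Pygm, the muscle form, was 16.7-fold higher in quadriceps, at 8634 CPM against 516 in brown fat. Pygl, the liver form, was 185-fold higher in brown fat, at 579.8 against 3.13 CPM. The brain form Pygb was 16.8-fold higher in brown fat, at 107 CPM. In quadriceps Pygm held 99.9% of the family's counts per kilobase. In brown fat Pygl led Pygm by 1.08-fold, an order that turned when the union of exons was used as the length. Of the phosphorylase kinase that switches the enzyme on, the 3 member genes were higher in quadriceps. The regulatory subunit Phka1 was 33.2-fold higher, the regulatory subunit Phkb 11.6-fold and the muscle catalytic subunit Phkg1 15.7-fold. The liver forms, which are not members, lay the other way, with Phka2 7.33-fold and Phkg2 4.52-fold higher in brown fat. There Phka2 stood at 79.7 CPM and Phka1 at 42.5.

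The genes that build glycogen differed less. Gys1, the glycogen synthase of muscle and fat, was at 413 CPM in quadriceps and 371 in brown fat. Gyg, the glycogenin that primes the chain, was 1.62-fold higher in quadriceps. Gbe1, the branching enzyme, was 3.13-fold higher in brown fat. Ugp2, which makes the activated sugar UDP-glucose, was 5.08-fold higher in quadriceps. Of the phosphoglucomutases, the symbol Pgm2 stood at 863 CPM in quadriceps and 328 in brown fat, and Pgm1 at 2.41 and 13.7. These symbols have been exchanged between annotation releases, and the RefSeq table of GRCm38.p6 lists each as a synonym of the other. Which of the pair is the abundant gene is therefore not settled by the deposited symbol.

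Among the 11 families with more than 1 isoform, the leading isoform per kilobase was another gene in brown fat than in quadriceps in 2, the phosphorylases and the lactate transporters. In the remaining 9 the same gene led in both tissues. The mutases and the enolases among them are uncertain, since Pgam1 and Eno1 share much sequence with other genes, as given below. In brown fat Pgam2 led Pgam1 by only 1.19-fold, and this order turned without the length correction. The lead of Pygl over Pygm there was only 1.08-fold, and that order turned with the union of exons as length.

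The promoters of 2 families that contrasted between tissues are shown with matches to 3 short motifs in capitals, each searched on both strands. The motifs were CAGCTG, an E-box bound by myogenic factors such as MyoD, ACGTG, the core of the hypoxia response element, and AAGGTCA, a half-site of the ERR receptors that PGC-1alpha coactivates. The sequences come from the RefSeq promoter table of build GRCm38.p6, which is not the build named in the submitters' notes. Each is the 250 bases before the first listed start of the gene, 5′ to 3′ on its own strand, at chr19:6384158-6384407, plus strand for Pygm, chr12:70227684-70227933, minus strand for Pygl, chr11:5803797-5804046, minus strand for Pgam2 and chr19:41911621-41911870, plus strand for Pgam1.
Pygm: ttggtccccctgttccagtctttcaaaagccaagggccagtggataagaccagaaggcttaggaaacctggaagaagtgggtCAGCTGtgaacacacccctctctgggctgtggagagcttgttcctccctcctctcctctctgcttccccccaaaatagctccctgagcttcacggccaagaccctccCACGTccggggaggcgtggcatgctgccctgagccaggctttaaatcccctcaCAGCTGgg
Pygl: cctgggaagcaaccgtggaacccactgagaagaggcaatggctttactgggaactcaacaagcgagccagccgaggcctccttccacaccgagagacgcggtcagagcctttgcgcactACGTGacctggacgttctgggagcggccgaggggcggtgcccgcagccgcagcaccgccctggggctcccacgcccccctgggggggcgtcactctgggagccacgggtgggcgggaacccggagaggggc
Pgam2: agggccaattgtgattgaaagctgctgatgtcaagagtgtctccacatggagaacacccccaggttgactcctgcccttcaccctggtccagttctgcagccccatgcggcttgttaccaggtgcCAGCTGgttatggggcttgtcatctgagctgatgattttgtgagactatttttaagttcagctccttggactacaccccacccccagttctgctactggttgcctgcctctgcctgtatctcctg
Pgam1: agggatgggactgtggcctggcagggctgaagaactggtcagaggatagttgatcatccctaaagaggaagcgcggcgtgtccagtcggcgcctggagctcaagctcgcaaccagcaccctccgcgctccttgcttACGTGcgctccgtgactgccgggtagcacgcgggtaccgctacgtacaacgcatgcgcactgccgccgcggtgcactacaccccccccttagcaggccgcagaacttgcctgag

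In these windows CAGCTG matched at 2 places for Pygm and 1 for Pgam2, and at 0 for Pygl and Pgam1. ACGTG matched once for Pygm, Pygl and Pgam1. A promoter was listed for 36 of the 37 genes, Eno1 among them but not Slc2a4. CAGCTG was found in 7 of these 36, or 19.4%, against 12.8% of all 27025 genes. It was found in 11.3% of the 7142 genes with a mean normalized count of at least 50 in both tissues. The 7 were Fbp2, Gpi1, Gys1, Pgam2, Phka1, Pkm and Pygm. The muscle forms Pfkm, Eno3 and Slc16a3 thus had no match, while Gpi1 and Gys1, nearly level between tissues, had one. ACGTG, which also lies within the E-box CACGTG, was found in 16, or 44.4%, against 16.6% and 23.1%. The 16 were Fbp2, Hk2, Ldha, Pfkfb3, Pfkm, Pgam1, Pgk1, Pgm1, Pgm2, Pygb, Pygl, Pygm, Slc16a1, Slc16a3, Slc2a1 and Ugp2. The full E-box CACGTG was found in 4, Fbp2, Ldha, Pfkm and Slc16a1, or 11.1%, against 6.05% and 9.06%. AAGGTCA was found in 1 promoter, that of Eno1, or 2.78%, against 4.05% and 2.53%. A match describes the letters of this window and no binding was measured here.

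For several of the muscle isoforms the brown fat level, as a percentage of the quadriceps level, lay within the wide range of markers of muscle fibres. As markers, 10 fast fibre genes and 10 genes of skeletal muscle in general were taken, 20 in all. Their level in brown fat, as a percentage of that in quadriceps, ran from 1.25%, for the giant sarcomere gene Neb, to 24.9%, for Actn2, with a median of 6.34%. The 10 fast fibre genes alone ran from 3.27% to 9.58%. Of the 36 members, 9 fell within the range of the 20 markers, against 5.88% of all genes that reach a mean of 50 in a tissue. Slc16a3 stood at 2.54%, Phka1 at 3.01%, Pygm at 5.98%, Phkg1 at 6.38% and Pgam2 at 6.56%. Phkb stood at 8.60%, Eno3 at 8.62%, Pfkm at 9.16% and Ugp2 at 19.7%. The next member, Fbp2, was at 33.2% and Aldoa at 38.4%, while 14 members were above 100%. Of all genes that reach a mean of 50 in a tissue, only 25.6% were higher in quadriceps. Against the range of the fast fibre genes alone 6 members fell within, and the share of all genes in that range was not computed. The list of slow fibre markers had a median of 283% and reached 680% for Tnni1. Its lowest value, 26.0%, was that of Myh2, which encodes the myosin of fast oxidative fibres rather than a slow one, and the next was Casq2 at 51.8%. The part of muscle fibre RNA in these 9 brown fat levels was not tested. In bulk tissue fewer cells of a type and less RNA per cell cannot be told apart.

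**Figure D2:**
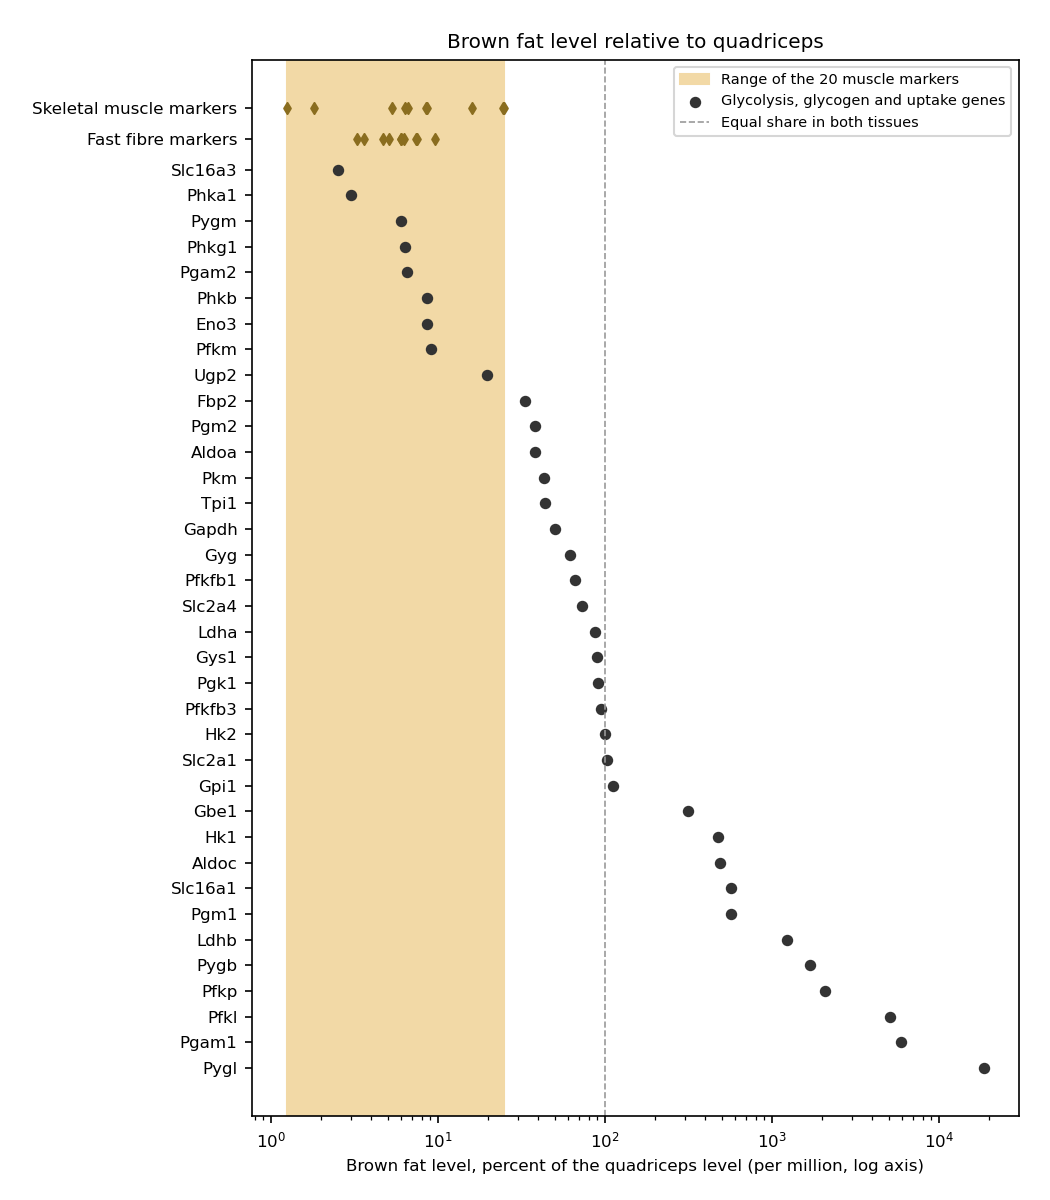
Brown fat level as a percentage of the quadriceps level, from CPM values and on a log axis, for the 36 genes (circles) and for the skeletal muscle and fast fibre markers (diamonds), with the range of the 20 markers shaded and equal shares dashed. The 9 genes from Slc16a3 to Ugp2 lie within the shaded range, and Pygl lies farthest to the right.

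The standard errors of the genotype comparison set some of the same genes apart in brown fat. Among genes with a mean normalized count of at least 50, a standard error under 0.08 on the log2 scale, a limit chosen after the values were seen, was held by 3.27% in brown fat. Of the 20 muscle markers 19 were under it, with a median of 0.068. Of the 35 members with such a mean 4 were under it. These were Pgam2 at 0.060, Slc16a3 at 0.068, Pygm at 0.071 and Eno3 at 0.076 in the authors' deposited table. In quadriceps 2 of the 20 markers and 0 of 34 members were under this limit, as were 0.661% of all genes. The deposited estimates behave as shrunken towards 0, since the median standard error was only 0.022 in quadriceps and 0.018 in brown fat among genes whose mean stayed under 1. The narrow brown fat intervals of these 4 genes are therefore not a direct measure of precision.

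**Figure D3:**
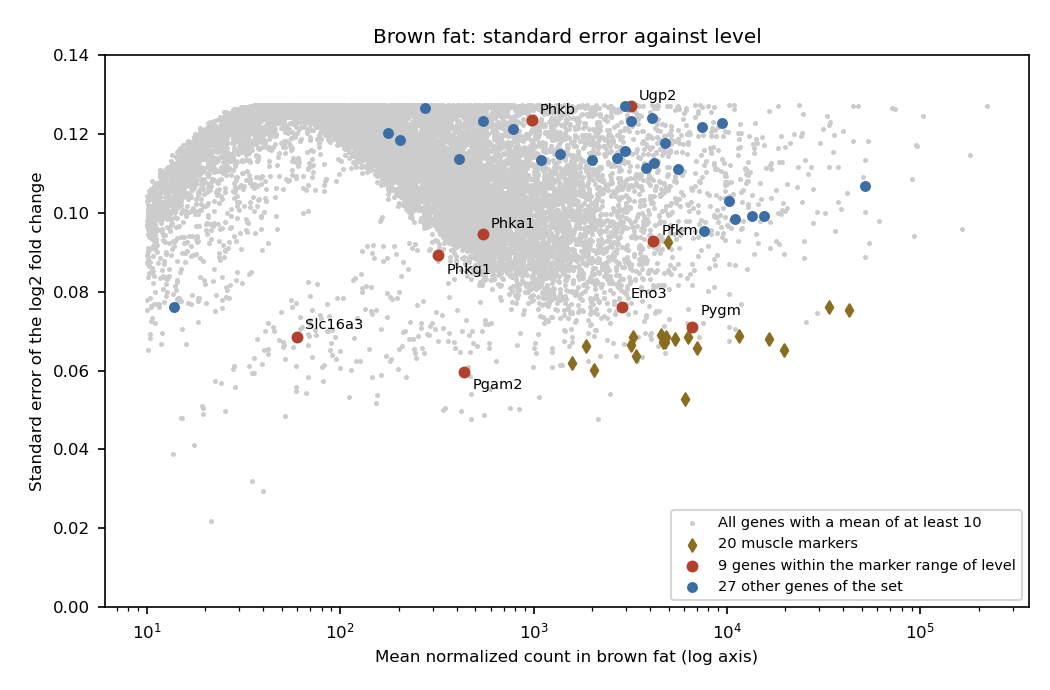
Standard error of the log2 fold change between genotypes in brown fat against the mean normalized count on a log axis, for all genes with a mean of at least 10 (grey), the 20 muscle markers (diamonds), the 9 genes within the marker range of level (red, named) and the 27 other genes of the set (blue). Pgam2, Pygm, Eno3 and Slc16a3 lie with the muscle markers below 0.08, and Ugp2 and Phkb lie with the bulk of genes. The marker range is that of the brown fat level as a percentage of the quadriceps level.

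Some levels rest on sequence that other genes share. For each listed gene the longest coding transcript in GENCODE M21 was cut into windows of 75 bases, the read length, and each window was looked for in the transcripts of all other genes, on either strand. At least 10% of the windows were shared in 9 of 37 genes, or 24.3%, against 21.4% of 21866 protein-coding genes. Gapdh shared 80.3% of its windows with 121 other genes, Pgk1 67.5%, Eno1 65.4% and Pgam1 40.6%. Eno1 had a mean normalized count of 0.0901 in brown fat in the authors' deposited table, although it serves glycolysis in most cell types. Its close copy Eno1b, which held 64.2% of the windows of Eno1, was also near 0, with the authors' means of 0.123 in quadriceps and 1.78 in brown fat. The main muscle forms Pygm, Pfkm, Pgam2 and Eno3 and the transporters Slc2a4, Slc16a1 and Slc16a3 shared 0 windows. How the authors counted reads that match several genes is not given in the sources used here. Its part in the Gapdh, Pgk1, Pgam1 and low Eno1 counts was not tested. Ratios of Pgam1 to Pgam2, the enolase family and the ranks of Gapdh and Pgk1 among the members are therefore uncertain.

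The genotype comparison asks whether the allele changed the mRNA of these genes. By the authors' DESeq2 test, 0 members had an adjusted p under 0.05 in either tissue, where 0.0% of all genes passed in quadriceps and 0.0863% in brown fat. The adjusted p was 1.00 for each member that had one, 36 in quadriceps and 34 in brown fat. A positive value means higher in uORF-TAA. This reads the genotype that a table names first as its numerator, which no header states, and the brown fat sign was turned for this reason. Every brown fat fold change below therefore has the opposite sign to the one the authors deposited. Ppargc1a itself was at a log2 value of 0.058 ± 0.13 (SE) in quadriceps and 0.0016 ± 0.11 in brown fat, from the authors' deposited tables with the brown fat sign turned. At an unadjusted p under 0.05 there was 1 member in quadriceps, against 2.0% of all genes. It was higher, as 0.942% of all genes were, and 0 were lower, as 1.06% were. In brown fat there were 0, against 2.07% of all genes, 0.918% higher and 1.15% lower.

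In each tissue 22 of the 36 log2 fold changes were above 0. The share over all genes was 51.7% in quadriceps and 51.2% in brown fat, or 50.9% and 53.6% at a mean of at least 50. The median over the members was 0.035 in quadriceps, beside 0.0024 over all genes, and 0.017 in brown fat, beside 0.0015. In brown fat the median over all genes was 0.0064 at a mean of at least 50. The members' brown fat median became 0.011 when centred on that value, and 0.027 without members that share at least 10% of their sequence windows. In quadriceps the values ran from -0.22 to 0.28 and in brown fat from -0.16 to 0.22, and 29 of 36 lay within 0.1 of 0 in each tissue. On the deposited log2 scale the 95% interval of every member lay within 1.5-fold in either direction in both tissues. These estimates behave as shrunken, so the intervals do not exclude a larger change. Aldoc, at a mean of only 4.67 in quadriceps, had a standard error of 0.095 there, against 0.107 for the abundant Pfkm. The share of all genes within these limits was not computed. The fast fibre markers had 8 of 10 values below 0 in quadriceps and all 10 in brown fat, with medians of -0.037 and -0.012. The adipocyte markers had 9 of 10 above 0 in quadriceps and 8 of 10 in brown fat, with medians of 0.071 and 0.12. Skeletal muscle markers had 7 of 10 above 0 in quadriceps and 2 of 10 in brown fat, the slow fibre list 9 of 10 in each, and nerve and glia markers 0 of 8 and 1 of 8. Brown adipocyte markers had 7 of 9 and 8 of 9 above 0, endothelial markers 4 of 8 and 6 of 8, macrophage markers 3 of 7 and 2 of 7, and blood cell markers 3 of 4 and 4 of 4. The part of any shift in cell makeup in the members' values was not tested.

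**Figure D4:**
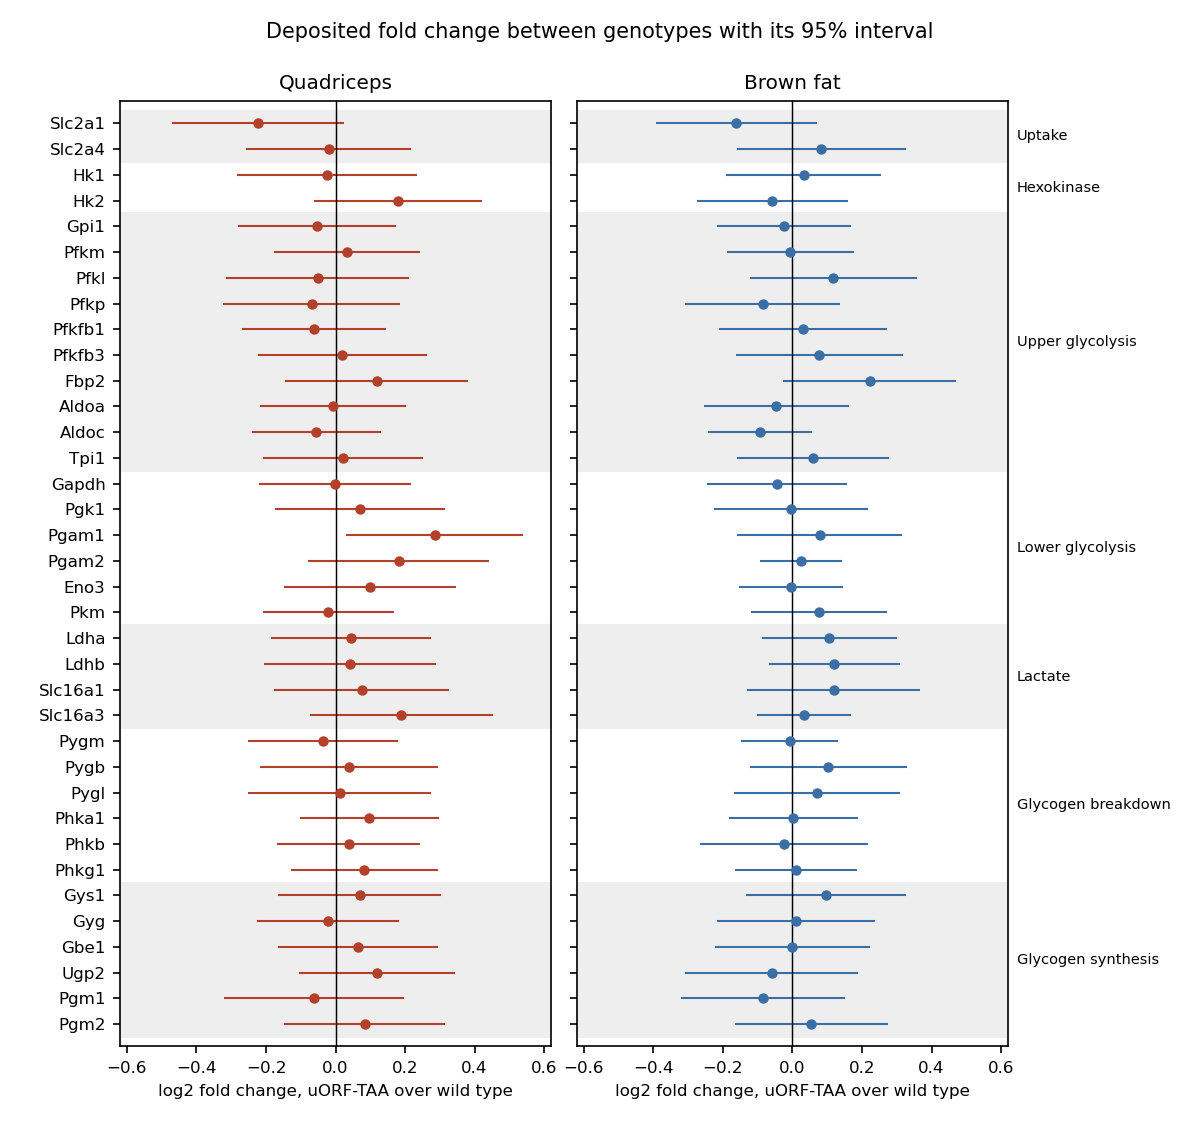
Log2 fold change of uORF-TAA over wild type for the 36 genes in quadriceps (left) and brown fat (right, deposited sign turned), from 4 libraries per genotype, with bars for the 95% interval on the deposited, shrunken scale. Every interval crosses 0 except that of Pgam1 in quadriceps, whose adjusted p was 1.00.

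No role held a member that passed the threshold. In quadriceps 0 of 2 uptake genes, 1 of 2 hexokinases, 4 of 10 genes of upper and 4 of 6 of lower glycolysis were above 0, as were 4 of 4 lactate genes, 5 of 6 of glycogen breakdown and 4 of 6 of glycogen synthesis. In brown fat the counts were 1 of 2, 1 of 2, 5 of 10, 3 of 6, 4 of 4, 4 of 6 and 4 of 6 in the same order. Each is to be read beside the 51.7% and 51.2% of all genes. In quadriceps the smallest p was that of Pgam1, at a log2 value of 0.28 ± 0.13 (SE) and an unadjusted p of 0.0282 (DESeq2 Wald test), at a mean of only 21.6 in the authors' deposited table. The muscle mutase Pgam2 had 0.18 ± 0.13 in quadriceps in the authors' deposited table. Slc2a1 had -0.22 ± 0.13 there and -0.16 ± 0.12 in brown fat, from the authors' deposited tables with the brown fat sign turned. Slc2a4 had -0.020 ± 0.12 in quadriceps and 0.083 ± 0.12 in brown fat, taken likewise from the authors' deposited table of each tissue. Hk2 had 0.18 ± 0.12 and -0.058 ± 0.11 in quadriceps and brown fat, taken likewise from the authors' deposited table of each tissue. Slc16a3 had 0.19 ± 0.13 and Ugp2 0.12 ± 0.11 in quadriceps in the authors' deposited table.

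In brown fat the smallest p was that of Fbp2, at 0.0798 before adjustment (DESeq2 Wald test), at a log2 value of 0.22 ± 0.13 (SE) in the authors' deposited table with its sign turned. Ldhb had 0.12 ± 0.10 and Ldha 0.11 ± 0.10 in brown fat in the authors' deposited table with its sign turned, and Slc16a1 had 0.12 ± 0.13. Pfkl had 0.12 ± 0.12 and the scarce Aldoc -0.093 ± 0.076, in the authors' deposited table with its sign turned.

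The leading isoforms of the remaining families lay close to 0. In quadriceps the authors' deposited table gave Aldoa -0.0080 ± 0.11 (SE), Pfkm 0.033 ± 0.11 and Pfkfb3 0.019 ± 0.12. Eno3 was at 0.10 ± 0.13, Ldha at 0.045 ± 0.12, Pygm at -0.036 ± 0.11 and Pgm2 at 0.085 ± 0.12 in the authors' deposited table for quadriceps. For brown fat, the authors' deposited table with its sign turned gave Aldoa -0.046 ± 0.11, Pfkm -0.0058 ± 0.093, Pfkfb3 0.077 ± 0.12 and Pgm2 0.054 ± 0.11. Pygl was at 0.070 ± 0.12, Pgam2 at 0.024 ± 0.060 and Eno3 at -0.0051 ± 0.076 in the authors' deposited table for brown fat, with its sign turned. The 95% interval of each of these crossed 0.

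The genotype effect was then compared between tissues, per gene, by subtracting the brown fat value from that of quadriceps. No member passed (0 of 36 at an adjusted p of 0.05 by the normal test of that difference), as 0.0% of 16844 genes did. At an unadjusted p under 0.05 the count was also 0, against 1.16% of all genes. The smallest p was that of Hk2, 0.154 (unadjusted), for a difference of 0.24 ± 0.17 (SE). Over the members the differences ran from -0.17, for Pfkl, to 0.24. The deposited fold changes and standard errors behave as shrunken in both tissues, so this test does not exclude a difference between them.

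Other genes of glucose and glycogen handling gave a like picture. Of 52 listed, 47 had a p-value in quadriceps and 49 in brown fat, and 0 passed in either tissue. In quadriceps 32 were above 0 and 15 below, and in brown fat 29 and 20. Over all genes 51.7% and 51.2% were above 0, and 2.0% and 2.07% had an unadjusted p under 0.05. Txnip, which curbs glucose uptake, was at -0.25 ± 0.12 (SE) in quadriceps in the authors' deposited table, the only one there with an unadjusted p under 0.05 (DESeq2 Wald test, p = 0.0415). The other 3 of smallest p there were Stbd1, which tethers glycogen to membranes, at 0.23 ± 0.13, the glucose sensor gene Mlxip at -0.17 ± 0.11 and the phosphatase subunit gene Ppp1r3a at 0.21 ± 0.13 in the authors' deposited table. In brown fat 2 had such a p in the authors' deposited table, whose sign is turned here, the glucose transporter gene Slc2a3 with -0.26 ± 0.13 and Ppp1r3b, which targets a phosphatase to glycogen, with 0.26 ± 0.13. Next by p were Bpgm, which makes 2,3-bisphosphoglycerate, at 0.21 ± 0.11 and Mlxip at -0.21 ± 0.12, from the authors' deposited table with its sign turned.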

How the data were processed

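RNA from 16 libraries, 4 per genotype and tissue, was compared by the authors. The submitters' processing notes name STAR 2.5.1b, DESeq2 1.10.1 and the build mm9, with no role or order. Which annotation and counting tool served is not stated in the labels. Per the file headers, each table holds a mean normalized count, a signal made by the authors over the 8 libraries of a tissue, with a log2 fold change, its standard error, a Wald score and the p-value and adjusted p-value. These deposited columns returned one another on recomputation. The labels do not say that each library is a mouse of its own, so the p-values measure the spread between these samples.

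Levels were taken in CPM of each table's sum and, between genes, per kilobase of the longest coding transcript (GENCODE M21, build GRCm38). Members called had a deposited adjusted p under 0.05. The difference between tissues was tested with a two-sided normal p and Benjamini-Hochberg adjustment over 16844 genes, treating tissues as independent. The procedure was tested on simulated data. These were fold changes drawn with the deposited standard errors and without shrinkage, so the effect of shrinkage was not tested. Depth per library was estimated through genes seen by 1 read in 1 library only. Members with full fold changes are the 6 of smallest p per tissue and the leading isoform of each family. Of the other pathway genes the 4 of smallest p per tissue are named. The members and lists were chosen with earlier results of these data known. Python 3.11.15 with pandas 2.3.3 and scipy 1.17.1 was used. Fast and slow fibre, skeletal muscle, adipocyte, brown adipocyte, blood cell, endothelial, nerve glia and macrophage markers were listed beside the members, and 0 of them passed the threshold in either tissue by the authors' test.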

Additional observations from a re-analysis of the deposited data

How the results depend on the processing

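The count of changed members was 0 in both tissues at an adjusted p of 0.1 and of 0.01, adjusted over all genes with a p-value, and over genes that reach a mean of 10 or 50, and moved only to 1 in quadriceps at an unadjusted p under 0.05. The members' median log2 fold change in quadriceps kept its value within 1.5 times under the 3 alternatives. In brown fat it was 0.027 without members that share at least 10% of their windows and 0.011 when centred on the median of all genes with a mean of at least 50. The count of members that differ between tissues was 0 with the brown fat sign as deposited too. If the assumed numerator is wrong for a tissue, all its directions turn.

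Scaling between tissues moved every level by the same factor, 0.55 on the log2 scale without the 50 highest genes of either table, 0.91 by the median ratio of genes and 0.71 without scaling, each towards quadriceps. The members higher in quadriceps were 22, or 25 under each of these, and those at least 2-fold higher 14, or 18 to 21. The log2 ratio of quadriceps over brown fat became 0.50, 0.86 and 0.67 for Slc2a1, 0.54, 0.90 and 0.71 for Hk2, and 0.39, 0.74 and 0.55 for Gpi1, each below 0 before. Families led by another gene in brown fat numbered 3 without the length correction and 1 with the union of exons as length, an alternative chosen after seeing the data. No paired analysis was possible because the tables hold no values per library, and no replicate could be left out for the same reason. Depth limits Aldoc, Pgam1 and Pgm1 in quadriceps most.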

Other observations

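A neighbouring pathway that draws on glucose 6-phosphate was mostly higher in brown fat. Of 8 genes of the pentose phosphate pathway, which supplies NADPH for fatty acid synthesis, 7 were at least 2-fold higher in brown fat, against 51.2% of all genes that reach a mean of 50 in a tissue. Tkt, the transketolase, was 141-fold higher, at 1424 CPM against 10.1 in quadriceps, and G6pdx, the entry enzyme, 43.9-fold. Taldo1, the transaldolase, was 19.98-fold higher. Rpia, the ribose isomerase, was the exception at 1.92-fold. Between genotypes 0 of the 8 passed in either tissue by the deposited DESeq2 test, and Rpia was the only one with an unadjusted p under 0.05 (p = 0.0373 in quadriceps), with a log2 fold change of 0.27 ± 0.13 (SE) there and 0.23 ± 0.12 in brown fat, from the authors' deposited tables with the brown fat sign turned.

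Genes outside the members also came in tissue forms. Pck1, which makes phosphoenolpyruvate for glycerol synthesis, stood at 8007 CPM in brown fat, 189.9-fold its level in quadriceps. Gpd1, which makes glycerol 3-phosphate, was 6.25-fold higher in brown fat. Gys2, known as the liver glycogen synthase, was 71.0-fold higher in brown fat, at 62.6 CPM. Of the subunits that bring a phosphatase to glycogen, Ppp1r3a was 62.7-fold higher in quadriceps and Ppp1r3b 83.1-fold higher in brown fat. Ppp1r3c, a further such subunit, was at 7.77% of its quadriceps level in brown fat, within the range of the 20 muscle markers. These genes were chosen after their values were seen, and their levels carry no test.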
